A study of Mus musculus with 6 samples.

Results

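The genes described here encode ribosome biogenesis factors and nucleolar proteins. They were chosen by name: every gene with a single annotated symbol of the Nop, Utp, Polr1, Nol, Rrp or Imp series, together with Bop1, Pes1, Dkc1, Nhp2, Gar1, Ncl, Npm1 and Wdr12. Of 22180 such genes on the array, 50 met the rule, on 57 probe sets, and each gene was read from its probe set with the highest mean signal. Fbl is also on the list of names, but its probe set carries more than 1 symbol, as do those of Utp14b and Rrp8, so these 3 have no value here. Liver RNA came from 12-week-old male mice of strain C57Bl/6J that carry the FAH5981SB point mutation at the end of an Fah exon, which leaves an unstable fumarylacetoacetate hydrolase, the last enzyme of tyrosine breakdown, and makes them a model of hereditary tyrosinemia. In the withdrawal group (3 arrays), NTBC was stopped at 11 weeks of age and livers were taken 7 days later. In the continuous group (3 arrays), NTBC, which blocks the pathway at an earlier enzyme, went on without a break (8 mg/l, in the drinking water). The Fah mutation, the low-tyrosine and low-phenylalanine chow and, per the growth protocol, 3% dextrose in the water were common to both groups, so neither is a wild-type liver. Replicates are labelled biological and are not tied to named animals, so the p-values describe the spread between these arrays.

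RNA polymerase I transcribes a long precursor rRNA in the nucleolus. The small subunit processome, a large assembly built around the U3 small nucleolar RNA (snoRNA), folds and cuts the part that becomes the small ribosomal subunit, and a separate set of factors matures the large subunit. Small nucleolar ribonucleoproteins with box C/D RNAs guide rRNA methylation, and those with box H/ACA RNAs guide pseudouridylation. The transcription factor MYC is a well-known activator of many of these genes, and liver cells raise ribosome production when they grow.

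After NTBC withdrawal 13 of the 50 genes rose, 1 fell on the probe set that the rule selects, and 36 did not pass the test. The risen genes were Utp4, Nol8, Nop58, Polr1a, Nol11, Nop2, Nop14, Utp20, Nol9, Bop1, Wdr12, Utp15 and Nol12, with changes between 1.48-fold (Nol12) and 2.68-fold (Nol8). The risen share was 26.0%, against 7.58% of the 22180 genes, and 10.0% of the 15682 genes whose mean signal lay within the range of the 50. For falls, 1 of 50 stood against 3.39% of all genes and 3.95% of those in that signal range. The gene that fell was Nop56, whose other probe sets went differently, as described below. The test was limma's moderated test on log2 signals two-sided, with p-values adjusted (Benjamini-Hochberg) across the 34472 probe sets and a threshold of 0.05. Of these probe sets 9.40% passed, 6.21% higher and 3.20% lower. Changes are log2 signal after withdrawal minus log2 signal on continuous NTBC.

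The median change of the 50 genes was 0.32, against -0.06 for all genes. Of the 50, 43 had a change above 0 and 7 below 0. On 29 genes all 3 withdrawal arrays lay above all 3 continuous arrays (58.0%, where 17.1% of all genes did so), and on 3 genes they lay below (13.4% of all genes). Among the 15682 genes in the members' signal range, 22.2% lay above and 12.9% below. Each of the 13 risen genes was among the 29. Leaving out withdrawal replicate 1 reduced the risen genes to 7, while the median stayed at 0.33. Over the whole array the same omission lowered the number of higher probe sets to 935, against 2139 with all arrays.

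**Figure D1:**
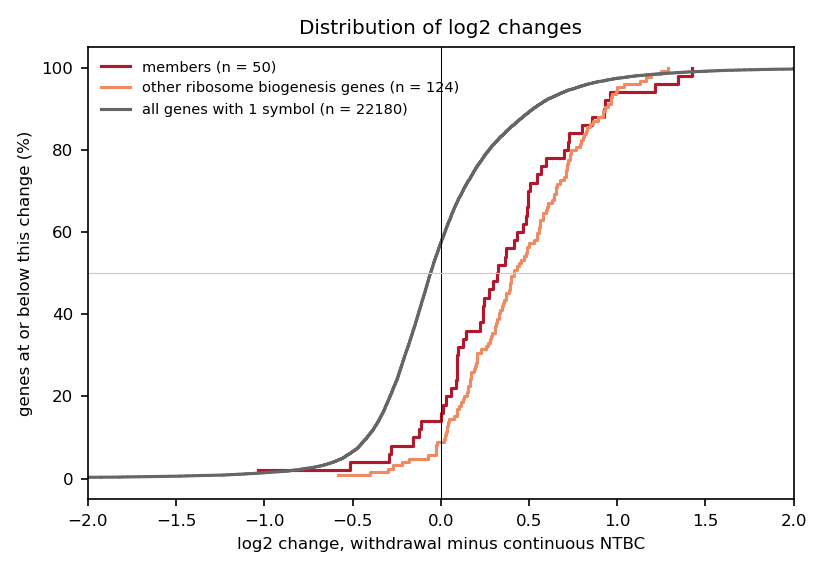
Cumulative distribution of the log2 change (withdrawal minus continuous NTBC, x axis) as the percentage of genes at or below each value (y axis), for the 50 members, 124 other ribosome biogenesis genes and all 22180 genes with 1 symbol; the x axis is limited to changes between -2 and 2. The curves of both ribosome biogenesis sets lie to the right of all genes over most of the range, with medians of 0.32 and 0.42 against -0.06.

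Promoter sequence was looked at because MYC binds the E-box CACGTG, which reads the same on both strands. RefSeq windows (build GRCm38.p6) of 300 bases, from 250 before to 50 after the annotated gene start, were matched by symbol for 40 of the 50 genes. The motif was present in 9 of these 40 (22.5%), in 4 of the 12 risen genes with a window (33.3%) and in 5 of the other 28 (17.9%). Among 15378 measured protein-coding genes with a window, 9.39% held it. Of 105 other ribosome biogenesis genes with a window, 17 held it (16.2%). These shares describe letters in a window and show no binding, by MYC or by another factor. The comparison genes were not matched for base composition, and differences between the shares were not tested. The 4 risen genes with the motif are shown with the E-box in capitals, 5′ to 3′.
Utp4 (chr8:106893390-106893689, + strand): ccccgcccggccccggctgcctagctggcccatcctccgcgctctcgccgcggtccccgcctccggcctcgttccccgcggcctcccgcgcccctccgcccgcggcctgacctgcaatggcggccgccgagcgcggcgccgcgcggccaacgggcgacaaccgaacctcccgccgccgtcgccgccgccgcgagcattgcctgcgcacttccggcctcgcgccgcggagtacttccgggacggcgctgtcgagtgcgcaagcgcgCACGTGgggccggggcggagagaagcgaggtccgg
Nop2 (chr6:125131633-125131932, + strand): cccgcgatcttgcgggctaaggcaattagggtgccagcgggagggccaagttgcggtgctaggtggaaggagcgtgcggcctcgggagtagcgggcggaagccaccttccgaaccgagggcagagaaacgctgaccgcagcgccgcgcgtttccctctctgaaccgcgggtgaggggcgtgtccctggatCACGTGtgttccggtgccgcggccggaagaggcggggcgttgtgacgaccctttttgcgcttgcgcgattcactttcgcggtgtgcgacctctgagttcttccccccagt
Nol11 (chr11:107189332-107189631, - strand): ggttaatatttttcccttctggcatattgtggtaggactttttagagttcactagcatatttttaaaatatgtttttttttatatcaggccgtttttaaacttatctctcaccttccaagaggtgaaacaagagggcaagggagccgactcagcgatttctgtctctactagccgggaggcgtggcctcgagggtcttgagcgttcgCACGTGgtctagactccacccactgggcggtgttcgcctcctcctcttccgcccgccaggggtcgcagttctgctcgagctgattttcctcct
Utp20 (chr10:88826765-88827064, - strand): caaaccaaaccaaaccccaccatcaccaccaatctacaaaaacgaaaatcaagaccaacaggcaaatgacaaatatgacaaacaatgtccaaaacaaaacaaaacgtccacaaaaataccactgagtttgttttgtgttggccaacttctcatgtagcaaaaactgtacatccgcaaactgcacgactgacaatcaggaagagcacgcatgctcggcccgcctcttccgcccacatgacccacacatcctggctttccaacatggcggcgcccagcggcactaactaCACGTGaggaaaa
The E-box began at base 266 of the window in Utp4, base 191 in Nop2, base 208 in Nol11 and base 288 in Utp20. The windows of Utp4 and Utp20 thus held it downstream of the annotated start, and those of Nop2 and Nol11 upstream.

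Among the 5 subunits of RNA polymerase I that carry a Polr1 symbol on the array, 1 passed, Polr1a. It encodes the largest, catalytic subunit, and its log2 signals were 8.14, 8.15 and 7.98 on withdrawal replicates 1 to 3, against 7.21, 7.18 and 7.01 on continuous replicates 1 to 3. The groups did not overlap (log2 change 0.96, SE 0.14, adjusted p = 0.00260). Polr1d, a subunit shared with RNA polymerase III, had 7.83, 7.88 and 7.78 after withdrawal and 7.33, 7.44 and 7.23 on continuous NTBC. These groups did not overlap either, but the change of 0.50 missed the threshold (adjusted p = 0.0550). It passed under 6 of the alternatives that keep all arrays, median centring among them (0.0419). The groups overlapped in the other 3 subunits. Polr1b, the second largest, had 6.60, 6.45 and 6.42 after withdrawal and 6.60, 6.47 and 6.32 on continuous NTBC (0.03, 95% interval -0.30 to 0.36). Polr1c, also shared with RNA polymerase III, had 7.21, 7.24 and 7.08 after withdrawal and 7.11, 7.25 and 7.50 on continuous NTBC (-0.11, -0.46 to 0.24). Polr1e had 5.51, 5.69 and 5.94 after withdrawal and 5.66, 5.60 and 5.85 on continuous NTBC (0.01, -0.35 to 0.37). The intervals of these 3 genes lay below the point estimate for Polr1a, although the differences between genes were not tested. The array lists 3 further subunits under older symbols, which the naming rule leaves out. Of these Znrd1, now Polr1h, rose, with 6.54, 6.64 and 5.91 after withdrawal and 5.80, 5.29 and 5.09 on continuous NTBC (0.97, SE 0.24, adjusted p = 0.0294). Its groups did not overlap, and its call held in 2 of the 6 fits that omit 1 array. Twistnb, now Polr1f, had a change of 0.23 (adjusted p = 0.431) and Cd3eap, now Polr1g, of 0.12 (adjusted p = 0.805).

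Of the 22 processome genes among the 50, 5 rose (22.7%, against 7.58% of all genes) and none fell, with a median change of 0.31. Small subunit assembly genes with other names are given further below. Utp4, Utp15 and Nol11 belong to the subcomplex that joins the nascent precursor first and, in yeast (Utp4 and Utp15) and human cells, also favours its transcription. All 3 rose. Utp4, also called cirhin and known for its mutation in a childhood cirrhosis in humans, had 9.37, 9.23 and 9.30 on the withdrawal arrays, against 7.93, 7.76 and 8.18 on the continuous arrays. This was a 2.54-fold rise with the smallest p of the 50 genes (log2 change 1.34, SE 0.16, adjusted p = 5.78e-04). Nol11 had 7.29, 7.28 and 7.02 after withdrawal and 6.38, 6.04 and 6.37 on continuous NTBC (0.93, SE 0.16, adjusted p = 0.00539). Utp15 rose less, with 7.14, 7.16 and 7.03 after withdrawal and 6.73, 6.41 and 6.40 on continuous NTBC (0.60, SE 0.15, adjusted p = 0.0360). The Utp15 call held, among omitted arrays, without continuous replicate 1 only.

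The other risen processome genes among the 50 were Nop14 and Utp20. Nop14, a core component, had 8.06, 8.06 and 7.75 on the withdrawal arrays and 7.25, 7.05 and 7.00 on the continuous arrays (0.86, SE 0.16, adjusted p = 0.00742). Utp20, a very large repeat protein that wraps the maturing particle, had 7.65, 7.54 and 7.37 after withdrawal and 6.93, 6.60 and 6.63 on continuous NTBC (0.80, SE 0.16, adjusted p = 0.0108). In both genes the lowest withdrawal array was replicate 3, and it still lay above the highest continuous array. Utp20 no longer passed when withdrawal replicate 1 was omitted (adjusted p = 0.0708).

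The other 17 processome genes among the 50 did not pass, with changes between -0.16 (Nol7) and 0.51 (Utp18). Utp18 and Utp6, which sit in a second subcomplex, had 0.51 (adjusted p = 0.0802) and 0.37 (adjusted p = 0.162). Imp4, a protein that pairs the U3 snoRNA with the precursor, had 0.43 (adjusted p = 0.0961), and its partner Imp3 had 0.10 with an interval from -0.41 to 0.60. Rrp9, which binds the U3 snoRNA itself, had 0.24 (adjusted p = 0.410). Utp3, Utp14a, Nop9 and Rrp7a had changes between 0.06 and 0.12, so genes of the same assembly ranged from near 0 to 1.34.

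**Figure D2:**
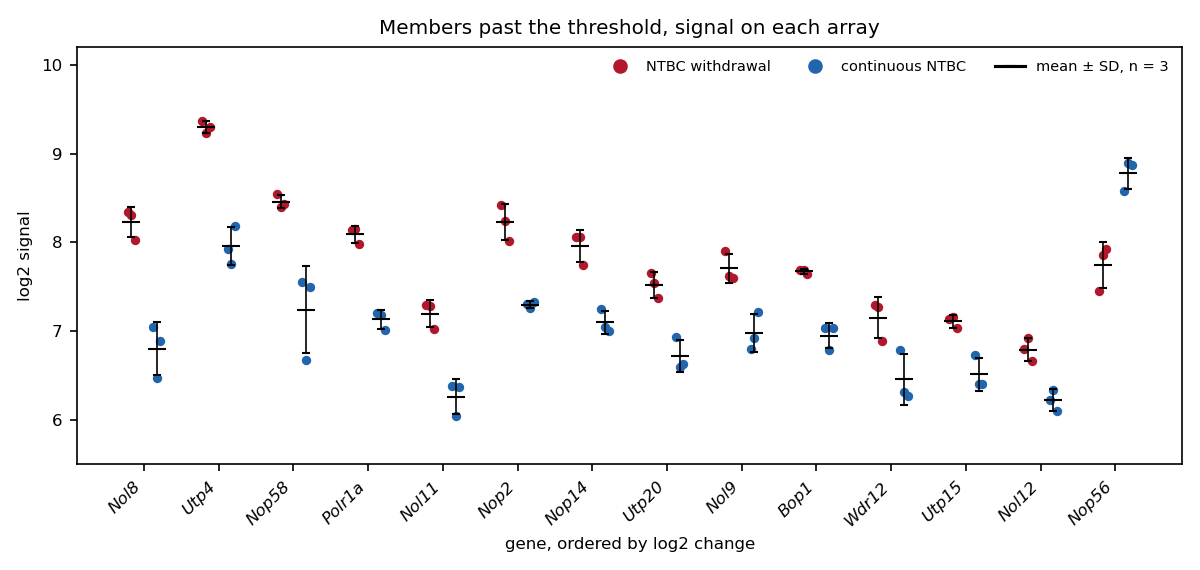
Log2 signal (y axis) of the 14 members past the threshold on each array (points), with the mean and SD of each group of 3 arrays, ordered by log2 change along the x axis. In the first 13 genes every withdrawal array lies above every continuous array, and in Nop56, read from its probe set with the highest signal, every withdrawal array lies below.

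The box C/D core proteins Nop56 and Nop58 form the heart of the particles that carry methylation guide RNAs and the U3 snoRNA. Nop58 had 8.54, 8.40 and 8.43 after withdrawal, against 7.55, 6.68 and 7.50 on continuous NTBC (log2 change 1.21, SE 0.22, adjusted p = 0.00763). Continuous replicate 2 was the low array of its group, and without it the change was 0.93.

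Nop56 was measured by 3 probe sets, which disagreed in direction. The brightest had 7.45, 7.86 and 7.92 on the withdrawal arrays and 8.58, 8.89 and 8.87 on the continuous arrays (log2 change -1.04, SE 0.18, adjusted p = 0.00473). The second had 7.92, 7.92 and 7.73 after withdrawal and 6.93, 6.92 and 7.08 on continuous NTBC (0.88, SE 0.14, adjusted p = 0.00403). The third had 7.01, 7.34 and 6.44 after withdrawal and 7.52, 7.95 and 6.98 on continuous NTBC, with overlapping groups (-0.55, SE 0.28, adjusted p = 0.261). The direction of Nop56 therefore depends on the probe set, and with the second in place of the brightest, a reading chosen after the values were seen, 14 of the 50 genes rose and none fell (limma, 26 of 50, or 52.0%, at an unadjusted p under 0.05 in either direction with the brightest, against 25.8% of all genes). RefSeq places 5 snoRNA genes inside the Nop56 gene, and which part of the gene each probe set covers is not known here. Snord110, a box C/D snoRNA among the 5 with a probe set of its own, had 11.12, 11.51 and 11.11 after withdrawal and 11.58, 11.25 and 11.56 on continuous NTBC (-0.22, adjusted p = 0.486).

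Of the other 4 genes with more than 1 probe set, Nol11 passed on its brightest set only. Its dimmer sets had a change of 0.19 (adjusted p = 0.587) on one and of -0.10 (0.716) on the other. Npm1 had 0.003 on the brighter set and 0.28 on the dimmer, Imp3 0.10 and -0.12, and Rrp7a 0.06 and -0.10, none past the threshold.

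**Figure D3:**
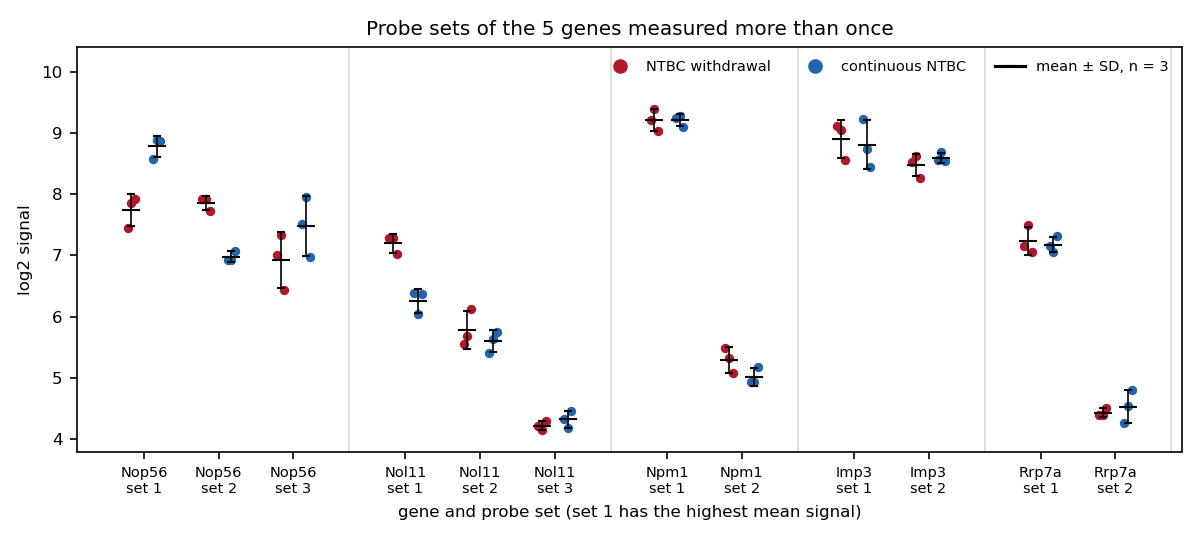
Log2 signal (y axis) on each array (points) with group mean and SD (n = 3) for every probe set (x axis, ordered by mean signal within a gene) of the 5 members measured more than once. Nop56 is lower after withdrawal on its first set (7.74 against 8.78) and higher on its second (7.86 against 6.98), and the first set of Nol11 is higher while its other 2 overlap.

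None of the 4 box H/ACA core proteins passed, and all 4 had changes above 0. Nhp2 had 8.12, 7.75 and 7.87 on the withdrawal arrays and 7.47, 7.49 and 7.38 on the continuous arrays (0.47, adjusted p = 0.0897). Dkc1, the pseudouridine synthase dyskerin, had 0.42 (adjusted p = 0.123), Nop10 0.33 (adjusted p = 0.251) and Gar1 0.24 (adjusted p = 0.374). In 3 of the 4 genes (75.0%), all but Gar1, all withdrawal arrays lay above all continuous arrays. The share was 17.1% for all genes and 22.2% for those in the members' signal range. Whether these genes changed less than the box C/D or processome genes was not tested.

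Large subunit factors had the highest median of the role groups with more than 2 genes, 0.45, with 4 of 10 higher and none lower. Nop2, which methylates a cytosine of the large-subunit rRNA, had 8.42, 8.24 and 8.02 after withdrawal, against 7.31, 7.26 and 7.33 on continuous NTBC (0.93, SE 0.15, adjusted p = 0.00428). Nol9, a kinase of RNA 5′ ends that acts on the spacer cut from the large-subunit precursor, had 7.90, 7.62 and 7.60 after withdrawal and 6.80, 6.92 and 7.22 on continuous NTBC (0.73, SE 0.17, adjusted p = 0.0223). Each withdrawal value lay above each continuous one in both genes. Nol9 missed the threshold when withdrawal replicate 1 (adjusted p = 0.125), withdrawal replicate 2 (0.0615) or continuous replicate 2 (0.0735) was omitted, and with quantile normalization (0.0834).

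Pes1, Bop1 and Wdr12 form the PeBoW complex, which matures the large-subunit rRNA. Bop1 had 7.69, 7.69 and 7.64 on the withdrawal arrays and 7.03, 6.79 and 7.03 on the continuous arrays (0.72, SE 0.14, adjusted p = 0.0111), and its call was lost without withdrawal replicate 1 (0.0649). Wdr12 had 7.30, 7.27 and 6.89 after withdrawal and 6.79, 6.31 and 6.27 on continuous NTBC (0.70, SE 0.19, adjusted p = 0.0462). Its lowest withdrawal array exceeded its highest continuous array by little, and the call held only without withdrawal replicate 3 or continuous replicate 1, and not with quantile normalization (0.0527). Pes1 had 8.23, 8.28 and 8.08 after withdrawal and 7.90, 7.38 and 7.68 on continuous NTBC, a change of 0.54 that missed the threshold (adjusted p = 0.0758). All 3 subunits thus had separated groups, and 2 passed. Among all genes 17.1% were separated upward and 7.58% rose.

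Nop53, whose yeast counterpart recruits the RNA exosome to the maturing large subunit, had the only change below 0 in this role group. Its signals were 8.01, 8.00 and 7.78 after withdrawal and 8.63, 8.42 and 8.28 on continuous NTBC, without overlap (-0.51, adjusted p = 0.0707). With quantile normalization its change was -0.70 and passed (adjusted p = 0.00908). Nop16, Rrp1, Rrp15 and Rrp1b had changes from 0.09 to 0.36 and did not pass.

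Among the remaining nucleolar proteins, Nol8 and Nol12 rose. Nol8, a nucleolar RNA-binding protein, had 8.34, 8.31 and 8.03 on the withdrawal arrays and 7.05, 6.47 and 6.89 on the continuous arrays, the largest change of the 50 (1.42, SE 0.18, adjusted p = 0.00104). Nol12, whose yeast counterpart trims 5′ ends of precursor rRNA, had 6.80, 6.92 and 6.66 after withdrawal and 6.23, 6.34 and 6.10 on continuous NTBC (0.57, SE 0.15, adjusted p = 0.0393). The Nol12 call was lost without any 1 of the 6 arrays (adjusted p from 0.0537 to 0.155).

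The abundant nucleolar proteins did not pass. Ncl, nucleolin, had 9.62, 9.49 and 9.56 after withdrawal and 9.43, 9.20 and 9.22 on continuous NTBC (0.27, 95% interval -0.05 to 0.59). Npm1, nucleophosmin, a histone chaperone of the nucleolus, had 9.21, 9.39 and 9.03 after withdrawal and 9.25, 9.27 and 9.10 on continuous NTBC (0.003, -0.34 to 0.34). Their groups were separated in Ncl and overlapped in Npm1. Nol3, which carries the nucleolar name but is best known as the apoptosis repressor ARC, had a change of -0.28 (adjusted p = 0.279), and Nol4 (-0.30) and Nol4l (0.09) did not pass either.

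**Figure D4:**
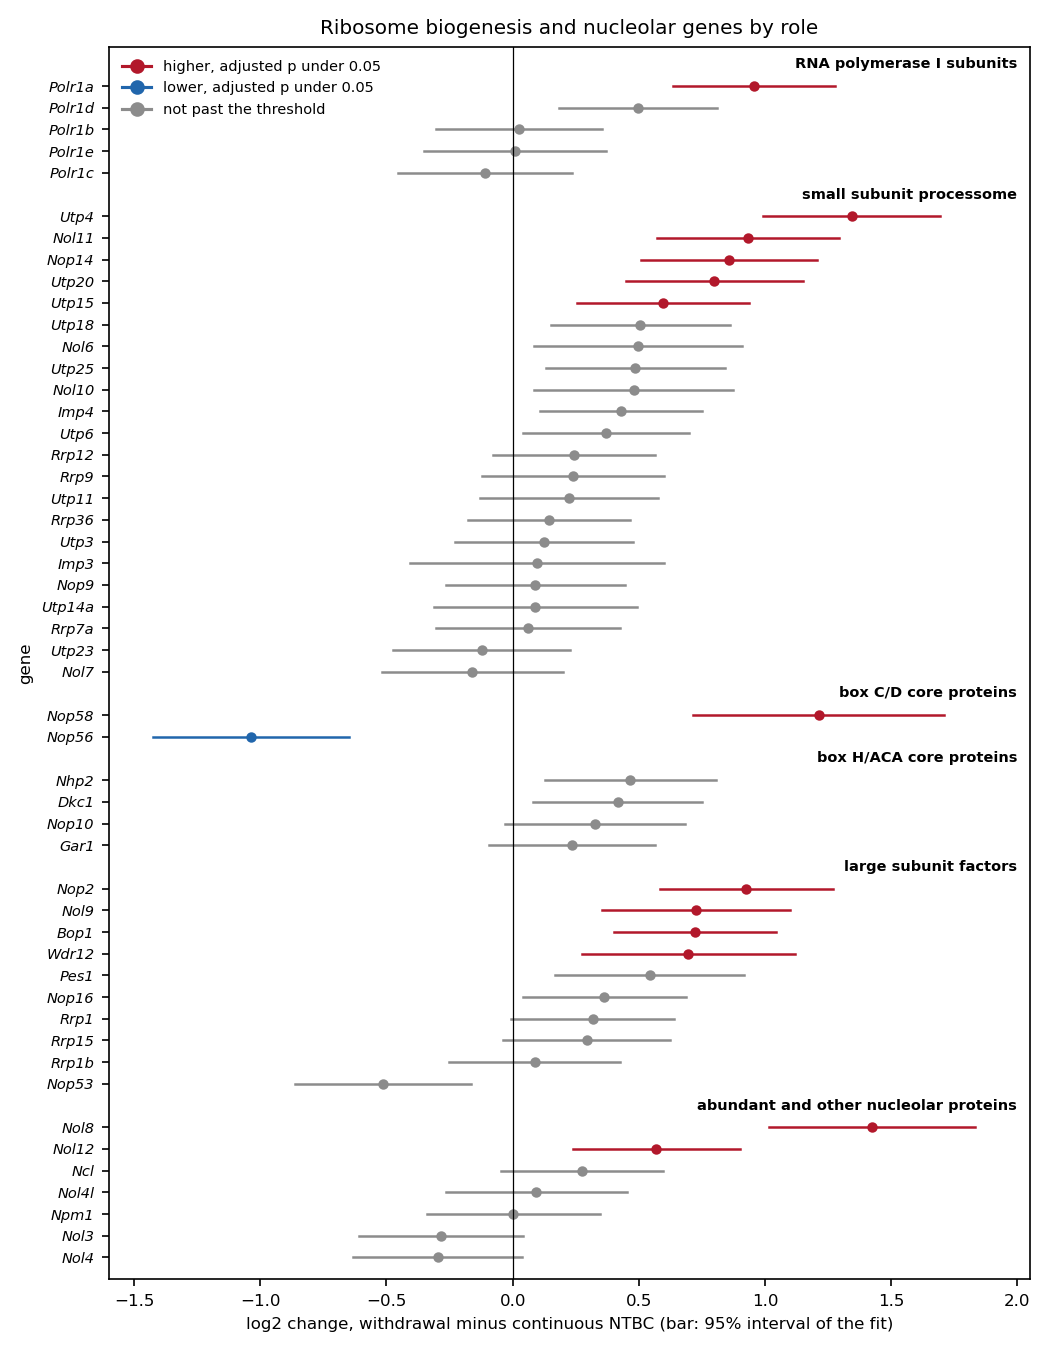
Log2 change (x axis, withdrawal minus continuous NTBC) of each of the 50 members with its 95% interval from limma, grouped by role down the y axis; red and blue mark genes higher and lower at an adjusted p under 0.05. Risen genes stand in every role group but the box H/ACA proteins, and 43 of the 50 points lie to the right of 0.

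Arrays of a group differed in the members' level. The median log2 signal of the 50 genes was 7.40, 7.48 and 7.34 on withdrawal replicates 1 to 3 and 7.13, 6.94 and 7.02 on continuous replicates 1 to 3. Withdrawal replicate 3 was the lowest of its group in 30 of the 50 genes and in 11 of the 13 risen ones. Continuous replicate 1 was the highest of its group in 30 of the 50 and in 9 of the 13. The median of all probe sets went another way, with 5.26, 5.21 and 5.39 on the withdrawal arrays and 5.29, 5.44 and 5.43 on the continuous arrays. With each array centred on its own median, the median change of all probe sets moved to 0.02 from -0.08, that of the 50 genes to 0.42, and 14 rose and 1 fell. Over all probe sets 2393 were then higher and 708 lower, against 2139 higher and 1102 lower without centring. With quantile normalization the median change of the 50 was 0.19, and 11 rose and 2 fell.

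Myc itself rose. Its signals were 8.76, 8.63 and 8.85 on the withdrawal arrays, against 8.06, 6.38 and 6.32 on the continuous arrays (1.83, SE 0.38, adjusted p = 0.0144). Continuous replicate 1, the array with the highest member median of its group, was also the high Myc array, and without it the Myc change was 2.40. The other arrays did not share an order. Withdrawal replicate 3 had the highest Myc signal of its group and the lowest member median (7.34). Withdrawal replicate 2 had the lowest Myc signal and the highest member median (7.48). Continuous replicate 2 lay above replicate 3 in Myc and below it in the member median (6.94 against 7.02). Myc missed the threshold when continuous replicate 2 (adjusted p = 0.0669) or withdrawal replicate 1 (0.0501) was omitted. Of the other 8 measured genes of the MYC network none passed. Max, the dimerisation partner of MYC, had 8.27, 7.93 and 8.08 after withdrawal and 7.65, 7.71 and 7.54 on continuous NTBC (0.46, adjusted p = 0.0914), and Mycn had a change of -0.45 (adjusted p = 0.154). The part of Myc in the changes of the 50 genes was not tested.

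**Figure D5:**
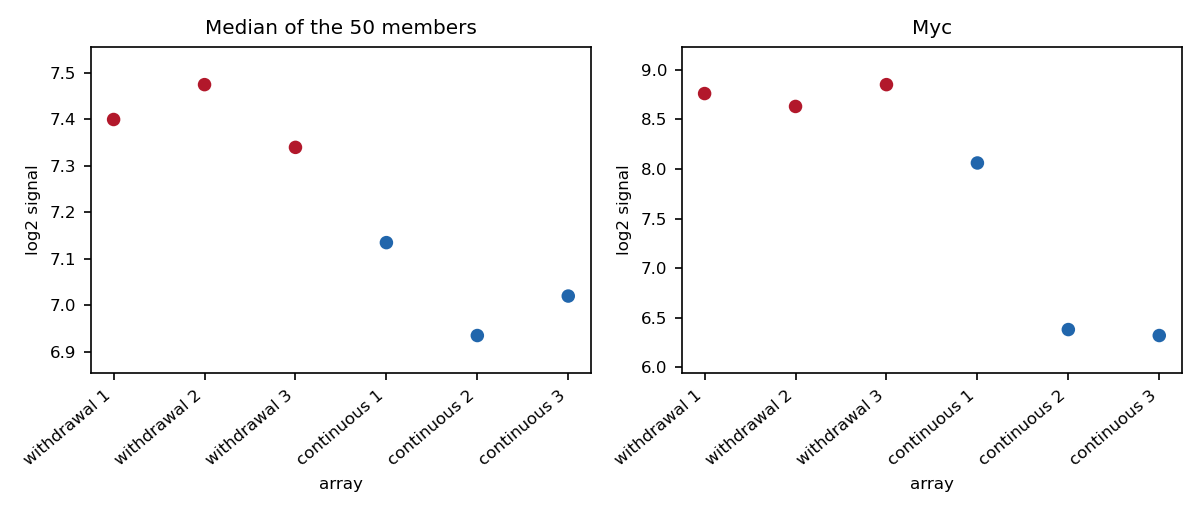
Median log2 signal of the 50 members (left) and log2 signal of Myc (right) on each of the 6 arrays (x axis; red, withdrawal; blue, continuous NTBC); the y axes do not start at 0 and differ. The 3 withdrawal arrays are the highest in both plots, and continuous replicate 1 is the highest of the continuous arrays in both, at 7.13 and 8.06. Among the withdrawal arrays the order is reversed between the plots, with replicate 3 lowest on the left and highest on the right.

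Genes of the same pathway that carry other names were read from the same fit. Of 124 measured, 43 rose (34.7%, against 7.58% of all genes) and none fell (3.39% of all genes; Taf1d, a subunit of the polymerase I selectivity factor, was the nearest with a change of -0.58 and adjusted p = 0.0583, and by limma 71 of 124, or 57.3%, had an unadjusted p under 0.05 in either direction, against 25.8% of all genes). Their median change was 0.42. Omitting withdrawal replicate 1 left 11 risen genes, omitting withdrawal replicate 2 left 17, and omitting continuous replicate 2 left 23. Over all probe sets the same omissions left 935, 1122 and 1327 higher, against 2139 with all arrays.

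In the list of polymerase I initiation and its regulators, which also holds the subunits Znrd1, Twistnb and Cd3eap, 5 of 17 rose: Rrn3, Ddx21, Taf1a, Nolc1 and the subunit Znrd1. The risen share was 29.4%, against 7.58% of all genes. Rrn3, which brings the polymerase to its promoter, had 8.44, 8.23 and 8.16 on the withdrawal arrays and 7.25, 6.73 and 7.36 on the continuous arrays (1.16, SE 0.19, adjusted p = 0.00386). The nucleolar helicase Ddx21 rose by 0.77 and Taf1a, of the selectivity factor, by 0.83, where the Ddx21 call held in 5 of the 6 fits that omit 1 array (0.0542 without withdrawal replicate 1) and the Taf1a call in 3 (adjusted p up to 0.0764). Ubtf, the factor that organises the rRNA gene, had a change of -0.07 (adjusted p = 0.808).

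Small subunit assembly genes rose in 17 of 34 cases, with a median of 0.61. Riok2, a kinase of late small-subunit maturation, had 8.65, 8.51 and 8.40 after withdrawal and 7.56, 7.34 and 7.27 on continuous NTBC (1.13, SE 0.15, adjusted p = 0.00133). Wdr75 (1.04, SE 0.16) and Wdr43 (0.92, SE 0.15), which sit in the same subcomplex as Utp4, Utp15 and Nol11, rose too. Riok2, Wdr75 and Wdr43 were named for the 3 smallest p-values of this list. Their rise therefore says nothing about the subcomplex as a whole. All 3 kept their calls without any 1 array, which that choice favours. Whether processome subcomplexes differed was not tested.

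Large subunit assembly genes rose in 18 of 46 cases (39.1%, against 7.58% of all genes), with a median of 0.44. Brix1 had 9.34, 9.20 and 9.21 on the withdrawal arrays and 8.26, 7.87 and 7.87 on the continuous arrays (1.25, SE 0.16, adjusted p = 9.93e-04). Noc3l, a large subunit factor, rose by 1.29 (SE 0.20) and Pak1ip1, a nucleolar protein of large subunit assembly, by 1.19 (SE 0.16). These 3 genes were separated between groups and passed without any 1 array. They were named for the smallest p-values of this list, so their stability does not extend to its other genes.

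In the exosome and snoRNP assembly lists 3 genes passed. Of 17 exosome and trimming genes 2 rose (11.8%, against 7.58% of all genes and 10.0% of those in the members' signal range), the nuclease Eri1 (0.64) and the exosome helicase Mtrex (0.71). Their median was 0.32, and 9 of 17 were separated upward (52.9%, against 17.1% of all genes and 22.2% of those in the members' signal range). Of 10 snoRNP assembly factors 1 rose (10.0%), Nufip1 (0.65, adjusted p = 0.0268). Both risen shares lie near the background. Snu13, the RNA-binding protein of box C/D particles, had 0.48 (adjusted p = 0.0800) and Ruvbl2, an assembly ATPase, 0.40 (adjusted p = 0.121). Of the 6 fits that omit 1 array, Eri1 was called in 3, Mtrex in 2 and Nufip1 in 1, with the highest adjusted p (0.0778, 0.105 and 0.132) without withdrawal replicate 1. Mphosph6, an exosome cofactor, had 0.58 (adjusted p = 0.0572).

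Markers of the liver's cell types were read on the same arrays. Alb, Ttr and Apoa1, which define hepatocytes, had log2 signals above 12 on every array and did not pass, while 3 of the 8 hepatocyte markers fell (Pck1, Cps1 and Tat) and 4 of 8 had an unadjusted p under 0.05 by limma. Of the 8, 7 had changes below 0, with a median of -0.50. In 4 of them, Apoa1 included, all withdrawal arrays lay below all continuous arrays (13.4% of all genes did so). The summed linear signal of the 8 was 53288 to 59137 after withdrawal and 65425 to 74130 on continuous NTBC. Alb and Ttr had mean log2 signals of 14.14 and 13.88, near the highest of any probe set (14.38). At such signals a change may not show. Of 8 sinusoidal endothelial markers 2 rose, Clec4g (0.81) and Lyve1 (1.07, called in 2 of the 6 fits that omit 1 array), and their summed signal was 2360 to 2407 after withdrawal and 1553 to 1846 on continuous NTBC. All 3 withdrawal arrays lay above the continuous arrays in 6 of these 8 endothelial markers, and 5 of 8 had an unadjusted p under 0.05 by limma. The separated share was 75.0%, against 17.1% of all genes and 22.2% of those in the members' signal range. None of 7 dividing-cell markers passed (limma, 2 at an unadjusted p under 0.05), and their summed signal was 214.1 to 231.9 after withdrawal and 214.3 to 266.2 on continuous NTBC. No gene passed among 12 macrophage markers, summing to 1558 to 2226 after withdrawal and 1612 to 1903 on continuous NTBC, or among 8 stellate markers, at 1479 to 1822 after withdrawal and 1298 to 1630 on continuous NTBC. The same held for 10 lymphocyte and neutrophil markers, at 275.8 to 315.3 after withdrawal and 305.1 to 371.1 on continuous NTBC, and for 5 cholangiocyte markers, at 261.6 to 302.4 after withdrawal and 247.9 to 286.4 on continuous NTBC. By limma these lists held 1, 2, 2 and 1 genes with an unadjusted p under 0.05, in the order named. Of all genes 25.8% had such a p. The hepatocyte and endothelial shares lay above this, and the dividing-cell and stellate shares near it. The macrophage, lymphocyte and neutrophil, and cholangiocyte shares lay below it. Differences between these shares were not tested. The part of endothelial and hepatocyte markers in the changes of the 50 genes was not tested, and in bulk liver fewer cells of a type and less RNA per cell cannot be told apart.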

How the data were processed

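Per the labels' protocols, 100 ng of total liver RNA was amplified with a whole-transcriptome kit and hybridised as biotin-labelled material, on 1 Affymetrix array per sample. The deposited table holds linear intensities, 1 for each probe set on each array, processed by the authors. Transcriptome Analysis Console is named in the submitters' processing notes; its version, background correction and normalization are not given in the sources used here. Log2 of the deposited intensities was modelled by lmFit and eBayes of limma 3.58.1 under R 4.3.3 (4 residual and 10.18 total degrees of freedom) on all 34472 probe sets, without filtering or renormalization. Array minima were 3.58 to 3.89 and maxima 20738 to 22227. There are no detection flags, so low signals may be background, and 3 arrays per group limit the precision. Near-identical copies and pseudogenes, as of Npm1, may bind the same probes. Names came from the platform annotation (23521 probe sets with 1 symbol, 1814 with several, 9137 unnamed here), and all 50 identifiers matched RefSeq. The members, role groups and lists were chosen with earlier results of these data known. The naming rule took all members, the 3 smallest p-values of each pathway list and Myc; Ubtf, Taf1d, Nolc1, Znrd1, Twistnb, Cd3eap, Snord110 and the called markers were named after their values were seen. The fit was tested on simulated data. Alternatives were other normalizations, filters, priors, weights, probe set rules, a replicate block and leaving out each array.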

Additional observations from a re-analysis of the deposited data

How the results depend on the processing

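Of the 14 called genes, 14 kept direction and call with median centring, without dim probe sets, with the replicate block, array weights, the trend and robust prior, probe sets with 1 symbol and low signals raised to the lower quartile of their array. With quantile normalization 12 did, and with probe sets averaged per gene 12 did (lost were Nol11, adjusted p = 0.185, and Nop56, 0.403). Among these alternatives and the omitted arrays no called gene changed direction, while Nop56 did so on its next brightest probe set (0.88). The number of risen genes was 20 with array weights (over all probe sets 3339 were then higher, against 2139) and ranged from 7 to 15 as arrays were left out in turn, against 13, and the number of fallen ones stayed 1 when arrays were left out. That number was 0 with probe sets averaged per gene and with Nop56 on its next brightest probe set, and 2 with quantile normalization, the trend and robust prior, or low signals raised, each time by Nop53. The median change of the 50 was 0.19 with quantile normalization and 0.42 with median centring, against 0.32, and 0.30 to 0.38 as arrays were left out. That of all probe sets was -0.02 with quantile normalization and 0.02 with median centring, against -0.08. Over all probe sets the number higher ranged from 935 to 2629 as arrays were left out, against 2139. For the other 124 genes the risen count ranged from 11 to 52 as arrays were left out, against 43, and 0 fell. Of these 124, 1 fell (Taf1d) without dim probe sets, with array weights, with the trend and robust prior, with 1-symbol probe sets or with low signals raised, and 2 (with Exosc5) with quantile normalization. The causes were not tested.

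The deviations of same-numbered arrays from their group means correlated at 0.16, -0.12 and 0.22. Those of differently numbered arrays correlated at -0.36 to 0.25. With 3 arrays per group these correlations depend on each other, so they cannot decide whether the replicate numbers pair the arrays. With the replicate number as a block 13 of the 50 rose and 1 fell, and 43 of the 124 rose.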
